A study of Mus musculus with 9 samples.

Results

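The genes described here are 10 enzymes that write or remove methyl groups on histone tails: the H3K4 methyltransferases Kmt2a, Kmt2b, Kmt2c, Kmt2d, Setd1a and Setd1b, the H3K4 demethylases Kdm1a, Kdm5a and Kdm5b, and Kdm6b. They were taken by symbol from a table of 38293 genes, and all 10 were present and passed the filter on low counts. The last of them departs from the others, since Kdm6b removes methyl groups from H3K27 and not from H3K4, and it is described separately.

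Methylation of H3K4 marks active and poised regulatory DNA. The SET domain enzymes Setd1a and Setd1b place most of the trimethyl mark at promoters, Kmt2a and Kmt2b place it at chosen promoters, with Kmt2b acting at bivalent promoters in pluripotent cells, and Kmt2c and Kmt2d place the monomethyl mark at enhancers. Each works in a COMPASS-type complex built on the shared core of Wdr5, Rbbp5, Ash2l and Dpy30. Kdm1a takes off mono- and dimethyl groups within the CoREST complex, and Kdm5a and Kdm5b take off di- and trimethyl groups.

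Poly-A RNA was sequenced from wild-type E14 mouse embryonic stem cells, a line of 129/Ola origin, in 3 conditions with 3 replicates each. The mESC-2i cells were kept naive in N2B27 medium with LIF, the MEK inhibitor PD0325901 and the GSK3 inhibitor CHIR99021. The mESC-ser cells grew on gelatin in DMEM with foetal bovine serum and LIF, a condition in which naive and primed features mix. EpiLC, which resemble the early post-implantation epiblast, were made from naive cells on human plasma fibronectin with activin A, bFGF and KSR in N2B27. All samples are from a single line, no source used here ties a replicate to a separate culture, and p-values then measure the spread between these libraries, which may be technical.

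The 9 libraries held between 7187576 and 16829549 counted reads. The condition labels were checked on marker genes. The summed level of 8 naive markers ran from 3134 to 3239 CPM (counts scaled to a common library size) in mESC-2i. It ran from 1717 to 1809 in mESC-ser and from 101 to 113 in EpiLC. The naive markers Zfp42 (349 against 297) and Nr0b1 (106 against 52.8) were higher on average in mESC-ser than in mESC-2i, unlike the sum. The 6 formative and primed markers summed to 103 to 119, 831 to 991 and 2260 to 2328 in the same order of conditions. The 4 shared pluripotency markers summed to 1375 to 1750, 2080 to 2192 and 2061 to 2229. Among these, Sox2 had means of 473, 504 and 61.8, and Utf1 of 28.2, 338 and 901. Markers of other cell types were summed as well. The 7 fibroblast markers summed to between 44.6 and 52.2 CPM in mESC-2i. Their sum ran from 58 to 78 in mESC-ser and from 40.9 to 45.5 in EpiLC. Behind that sum, single markers moved in opposite directions. Thy1 (29.5 CPM) and Dcn (8.5) were higher on average in EpiLC than in mESC-2i (3.08 and 0.475) or mESC-ser (4.37 and 0.163). Col1a1 was lower there, at 1.48 against 22.8 and 49.1, as were Col1a2, Col3a1 and Postn. Lum was low throughout, with means of 0.11 and 0.023 CPM in the stem cell conditions and 0 in every EpiLC library. The 6 primitive endoderm markers summed to between 2.26 and 16.3 CPM over all libraries, the 6 trophectoderm markers to between 17.7 and 110, with Elf5 at 0 in EpiLC, and the 5 neural and mesoderm markers to between 30.5 and 163, the last 2 sums being highest in mESC-2i. The part of these other cells in the results was not tested. In bulk RNA, fewer cells of a type and less RNA per cell cannot be told apart.

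One feature of the libraries bears on every gene in the set, because most of these transcripts are very long. The share of all counts that fell on the 1519 protein-coding genes with at least 10 kb of exon ran from 7.16% to 9.55% in mESC-2i, from 13.4% to 14.6% in mESC-ser and from 4.51% to 4.85% in EpiLC, so the conditions did not overlap. Each member is therefore given beside the 200 protein-coding genes closest to it in exonic length, and each change is given from 2 fits of the same counts. The first used TMM scaling in edgeR, and the second added offsets for the dependence on exonic length and GC content within each library. A gene was called when its adjusted p was under 0.05 and its log2 fold change exceeded 0.5 in size.

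**Figure D1:**
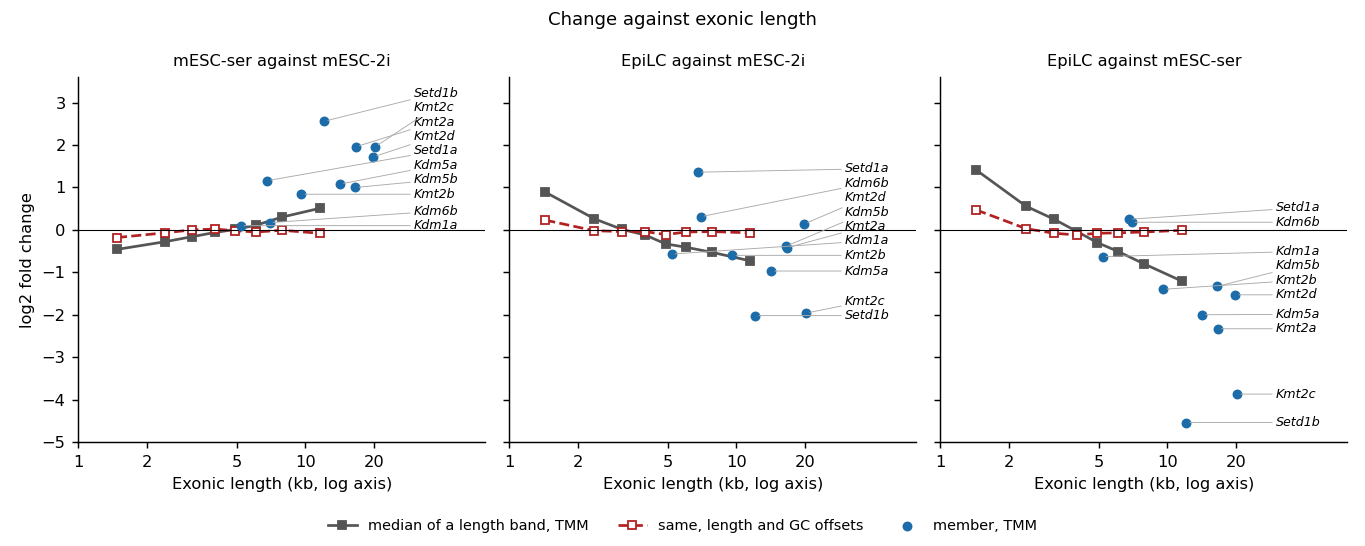
Median log2 fold change of protein-coding genes in 8 bands of exonic length (squares, kb on a log axis) with TMM scaling (solid) and with length and GC offsets (dashed), and each of the 10 genes with TMM scaling (dots), for the 3 comparisons. From the shortest to the longest band the TMM median went from -0.46 to 0.51 in mESC-ser against mESC-2i, from 0.89 to -0.73 in EpiLC against mESC-2i and from 1.41 to -1.21 in EpiLC against mESC-ser. With the offsets the longest band lay at -0.08, -0.07 and -0.01, and the shortest band still at -0.18, 0.23 and 0.47.

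Promoter sequences were matched for 6 of the 10 genes (RefSeq, GRCm38.p6, 250 bases before to 50 after the start). The pair printed here belongs to the 2 genes with a sequence that moved furthest in opposite directions in EpiLC against mESC-2i, Kmt2c (chr5:25498734-25499033, minus strand) and Setd1a (chr7:127777139-127777438, plus strand), written 5′ to 3′ with each CpG in capitals.
Kmt2c: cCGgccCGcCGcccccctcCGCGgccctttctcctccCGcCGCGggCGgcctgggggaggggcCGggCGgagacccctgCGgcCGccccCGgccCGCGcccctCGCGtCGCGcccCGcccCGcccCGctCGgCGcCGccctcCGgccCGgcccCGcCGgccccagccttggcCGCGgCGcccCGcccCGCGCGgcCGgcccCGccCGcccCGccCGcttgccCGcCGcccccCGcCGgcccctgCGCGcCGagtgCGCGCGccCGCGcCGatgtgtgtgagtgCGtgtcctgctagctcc
Setd1a: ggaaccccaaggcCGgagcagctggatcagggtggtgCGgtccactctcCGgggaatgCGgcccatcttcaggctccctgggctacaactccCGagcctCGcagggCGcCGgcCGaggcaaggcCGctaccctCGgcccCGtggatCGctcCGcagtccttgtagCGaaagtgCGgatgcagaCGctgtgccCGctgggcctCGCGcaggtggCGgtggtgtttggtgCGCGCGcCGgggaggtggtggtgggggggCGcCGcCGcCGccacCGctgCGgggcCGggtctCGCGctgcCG
Both were rich in CpG: the Kmt2c stretch held 56 CpG and was 88% G or C, and the Setd1a stretch held 35 CpG and was 73.7% G or C. The motif counted was the letters CG, which read the same on both strands. Of all 32851 promoters in the table, 0.195% held as many CpG as Kmt2c and 6.95% as many as Setd1a, against a median of 7. The other 4 matched promoters held 36 (Kmt2a), 27 (Kmt2d), 29 (Kdm1a) and 17 CpG (Kdm5b), so CpG-rich starts were shared by genes that moved up, moved down and did not pass the test.

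Levels per length, as RPKM (TMM-scaled CPM divided by the kilobases of exon), ranked the enzymes differently in each condition. The length taken was that of all exons of a gene, which can exceed its longest transcript. It was 16555 against 8714 bases for Kdm5b and 12068 against 8857 for Setd1b. Ranks between genes depend on that choice, and changes of a gene between conditions with TMM scaling do not. The offsets and the choice of like-length genes used the same length, so values that rest on them depend on it too. Kdm1a was the highest of the 10 in all 3, with 50.7 ± 1.75 RPKM (SD, n = 3) in the 2i condition, 55.5 ± 0.593 in the serum condition and 34.2 ± 1.87 in EpiLC, and its libraries overlapped those of no other member. Among the methyltransferases Kmt2b was highest in mESC-2i and mESC-ser, while in EpiLC it was passed by Setd1a. At the bottom stood Setd1b, Kmt2c and Kmt2a in mESC-2i, with overlapping libraries between neighbours, and Setd1b and Kmt2c in EpiLC, whose libraries did not overlap each other. From the lowest to the highest member the mean level ran from 1.44 to 50.7 RPKM in mESC-2i, from 7.83 to 55.5 in mESC-ser and from 0.358 to 34.2 in EpiLC. In mESC-ser the ranges of Kmt2d, Kdm6b, Kmt2a, Setd1a, Setd1b, Kdm5a and Kmt2c each overlapped that of the next in order, so the order within that stretch was not resolved.

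**Figure D2:**
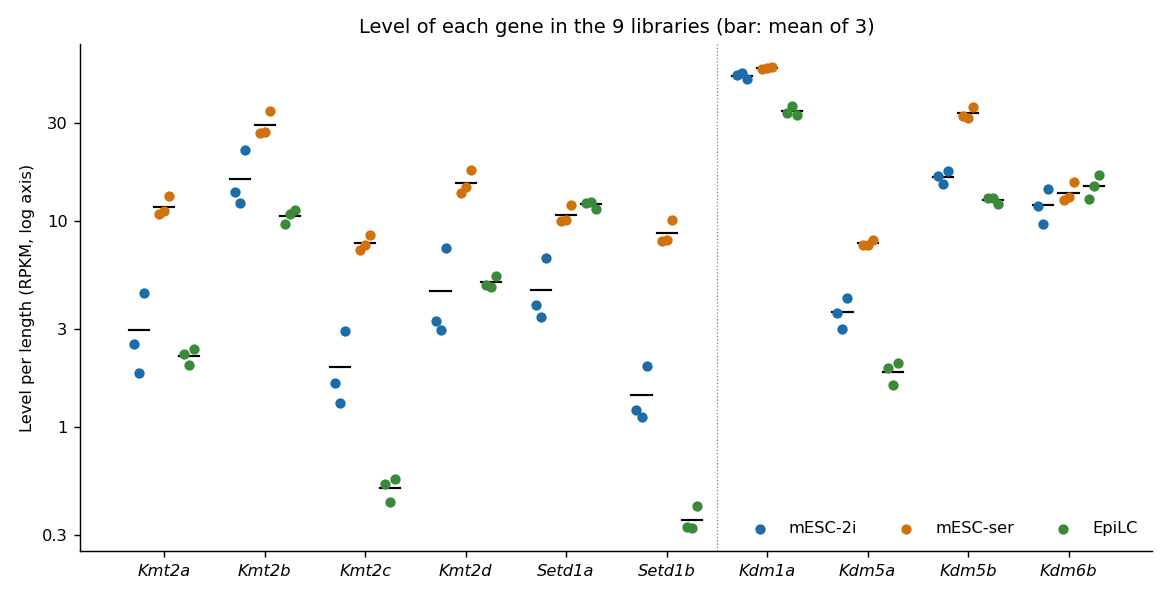
Level of each of the 10 genes in the 9 libraries (dots, RPKM on a log axis; black bar, mean of 3), with methyltransferases left of the dotted line and demethylases right of it. All 3 mESC-ser libraries lie above all mESC-2i libraries for every gene but Kdm6b, with Kdm1a separate though not called. In that comparison 8843 of 15728 genes were called in either direction. The share of all genes with separate libraries is not given here. The EpiLC libraries of Setd1b and Kmt2c lie lowest of all values plotted, between 0.326 and 0.563 RPKM.

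Serum culture was compared with 2i first. All 6 methyltransferases rose, by between 1.79-fold (Kmt2b) and 5.89-fold (Setd1b), and of the demethylases Kdm5a and Kdm5b rose 2.12-fold and 1.99-fold, while Kdm1a and Kdm6b did not pass the test. That made 8 of 10 members called higher and 0 lower, where 25.9% of the 15728 genes tested were called higher and 30.3% lower; the members' median log2 fold change was 1.12, against -0.04 over all genes. Long genes were called higher more often than that: the share was between 56% and 59% among the 200 like-length genes of Kmt2a, Kmt2c, Kmt2d, Kdm5a and Kdm5b, and between 32% and 46% among those of the other 5 members. With length and GC offsets the 6 methyltransferases were the members called, all higher, none lower, against 24.8% of genes higher and 27.9% lower, with a member median of 0.80 against -0.03. TMM scaling on long genes alone shifted the median of all genes to -0.35 and the share of calls that were higher from 46.1% to 29.4%, with 8 members called there too.

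EpiLC were then compared with mESC-2i, which is the transition from naive to formative cells. The members split: Setd1a rose 2.57-fold, whereas Setd1b fell 4.07-fold and Kmt2c 3.89-fold, and Kdm5a, Kmt2b and Kdm1a fell by smaller amounts. In all, 1 member was called higher and 5 lower, where 32.0% of the 15378 genes tested were called higher and 37.8% lower, and the member median was -0.49 against -0.11. Among like-length genes between 46.5% and 65.5% were called lower and between 7% and 27% higher. The offsets moved the count to 3 higher (Setd1a, Kmt2d and Kdm6b) and 2 lower (Setd1b and Kmt2c), with 29.4% of genes higher and 35.1% lower and a member median of 0.13 against -0.04. Total-count scaling put 33.7% of all calls on the higher side, against 45.9% with TMM and 62.8% with TMM on long genes, and the corresponding medians over all genes were -0.45, -0.11 and 0.35.

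Between EpiLC and mESC-ser the differences were widest. Every methyltransferase but Setd1a was lower in EpiLC, from 2.63-fold (Kmt2b) to 23.3-fold (Setd1b), as were Kdm1a, Kdm5a and Kdm5b, so that 8 of 10 were called lower and 0 higher. The background in that comparison was 35.5% of 15345 genes higher and 37.8% lower, and the medians were -1.47 for the members and -0.07 for all genes. Of like-length genes, between 78% and 81.5% were called lower for Kmt2a, Kmt2c, Kmt2d, Setd1b, Kdm5a and Kdm5b, and between 46% and 60% for the other 4 members. With the offsets 5 were lower (Setd1b, Kmt2c, Kmt2a, Kmt2b and Kdm5a) and 2 higher (Setd1a and Kdm6b), against 31.0% higher and 33.7% lower, and the member median was -0.54 against -0.02. Calls on the higher side made up 48.4% with TMM, 37.4% with total-count scaling, which set the median of all genes at -0.41, and 72.2% with TMM on long genes, which set it at 0.69. The 3 comparisons share libraries, so the agreement of any 2 of them is not independent.

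**Figure D3:**
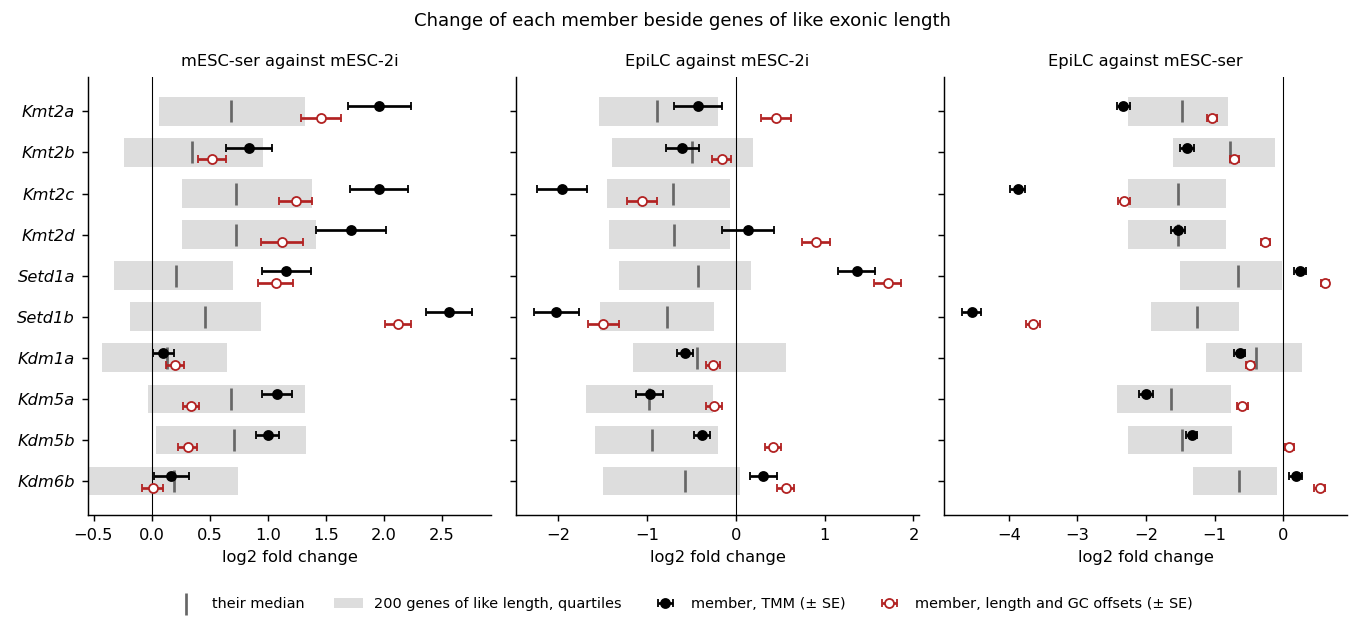
Log2 fold change ± SE of each gene in the 3 comparisons with TMM scaling (filled) and with length and GC offsets (open), over the quartile range (grey bar) and median (tick) of 200 genes of like exonic length with TMM scaling. Setd1b and Kmt2c lie outside the grey bars in all 3 panels and change side between the first and the others, while Kdm1a, Kdm5a and Kdm5b lie inside them throughout.

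Genes of like length gave a second reference. The quartiles of 200 such genes hold the middle part of them by construction, and 5 of the 10 members lay inside them in each comparison. In mESC-ser against mESC-2i the other 5 (Kmt2a, Kmt2c, Kmt2d, Setd1a and Setd1b) all lay above. EpiLC against mESC-2i placed Kmt2d, Setd1a and Kdm6b above and Kmt2c and Setd1b below. In EpiLC against mESC-ser, Setd1a and Kdm6b lay above, and Kmt2a, Kmt2c and Setd1b below.

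Setd1b, which builds one of the 2 SET1 complexes, had the widest ratio of highest to lowest mean level of the 10 genes. It lies on chromosome 5 (mm10, 123142193-123168629, plus strand) with 12068 exonic bases. Its level was 1.22, 1.12 and 1.99 RPKM in the 3 mESC-2i libraries, 8.01, 8.15 and 10.1 in the mESC-ser libraries, and 0.331, 0.326 and 0.416 in those of EpiLC. The 3 conditions did not overlap, and EpiLC rested on 30 to 40 reads per library. The log2 fold change was 2.56 in mESC-ser against mESC-2i (SE 0.20, edgeR adjusted p = 2.21e-06), -2.02 in EpiLC against mESC-2i (SE 0.25, edgeR adjusted p = 2.67e-05) and -4.54 in EpiLC against mESC-ser (SE 0.14, edgeR adjusted p = 5.3e-14). Like-length genes had medians of 0.46, -0.77 and -1.26 in those comparisons, so Setd1b departed from them by 2.10, -1.26 and -3.28. The offsets gave 2.12, -1.49 and -3.65, and all 27 alternatives tried in each comparison kept the call.

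Setd1a, the other SET1 enzyme and the one that embryonic stem cells are known to need, was the 1 member called higher in EpiLC than in mESC-2i with TMM. The gene is on chromosome 7 (127776670-127800122, plus strand) with 6795 exonic bases. Levels were 3.94, 3.43 and 6.62 RPKM in mESC-2i, 9.98, 10.1 and 12 in the mESC-ser libraries, and 12.3, 12.4 and 11.5 in those of EpiLC. All mESC-2i libraries lay below all the others, and mESC-ser and EpiLC overlapped. Against mESC-2i the log2 fold change was 1.16 in mESC-ser (SE 0.21, edgeR adjusted p = 0.000713) and 1.36 in EpiLC (SE 0.21, edgeR adjusted p = 0.000114), and like-length genes had medians of 0.21 and -0.43. Between EpiLC and mESC-ser it was 0.25 (SE 0.09) and not called with TMM, and 0.61 and called with the offsets (edgeR adjusted p = 2.89e-07), where total-count scaling gave -0.10. A read-through gene, Gm49388, overlaps 52.3% of its exonic bases on the same strand and shares 54% of its 50-base sequences. Gm49388 had no row in the counts used here. Reads of the read-through transcript may therefore stand under Setd1a, and how shared reads were handled is uncertain.

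Kmt2c (chromosome 5, 25271798-25498783, minus strand, 20291 exonic bases) encodes MLL3, one of the enhancer monomethyltransferases. Its level was 1.64, 1.32 and 2.95 RPKM in mESC-2i, 7.29, 7.65 and 8.54 in the mESC-ser libraries, and 0.532, 0.436 and 0.563 in those of EpiLC, with 81 to 91 reads in each EpiLC library. As with Setd1b, the 3 conditions were separate, highest in serum and lowest in EpiLC. Log2 fold changes were 1.96 in mESC-ser against mESC-2i (SE 0.25, edgeR adjusted p = 5.56e-05), -1.96 in EpiLC against mESC-2i (SE 0.28, edgeR adjusted p = 7.99e-05) and -3.87 in EpiLC against mESC-ser (SE 0.11, edgeR adjusted p = 3.97e-14). The medians of like-length genes were 0.73, -0.71 and -1.53. With offsets the values were 1.24, -1.06 and -2.32, all called.

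Kmt2d, which encodes MLL4 and shares the enhancer role, was not called in EpiLC against mESC-2i with TMM. This gene (chromosome 15, 98831669-98871204, minus strand, 19931 exonic bases) stood at 3.29, 2.96 and 7.46 RPKM in mESC-2i, 13.7, 14.7 and 17.7 in the mESC-ser libraries, and 4.9, 4.82 and 5.45 in those of EpiLC. The EpiLC libraries lay within the range of mESC-2i, and all mESC-ser libraries lay above both. Serum was higher by 1.72 on the log2 scale (SE 0.30, edgeR adjusted p = 0.000513; 1.12 with offsets). In EpiLC against mESC-2i the value was 0.14 (SE 0.29, edgeR adjusted p = 0.675), but 0.70 and called without mESC-2i replicate 3 (edgeR adjusted p = 6.83e-07), 0.90 and called with the offsets (edgeR adjusted p = 0.000391) and -0.20 with total-count scaling. Against mESC-ser it fell by 1.53 on the log2 scale (SE 0.10, edgeR adjusted p = 1.69e-10), a value equal to the like-length median of -1.53, and the offsets left -0.26, which was not called.

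Kmt2a, which encodes MLL1, lies on chromosome 9 (44803355-44881296, minus strand) with 16670 exonic bases. Libraries gave 2.53, 1.84 and 4.51 RPKM in mESC-2i, 10.8, 11.2 and 13.3 in the mESC-ser libraries, and 2.26, 2.01 and 2.4 in those of EpiLC. Serum stood apart from the other conditions, which overlapped. The log2 fold change was 1.96 in mESC-ser against mESC-2i (SE 0.27, edgeR adjusted p = 9.9e-05; like-length median 0.68; 1.46 with offsets) and -2.33 in EpiLC against mESC-ser (SE 0.10, edgeR adjusted p = 1.77e-12; like-length median -1.47; -1.04 with offsets). For EpiLC against mESC-2i it was -0.42 (SE 0.27, edgeR adjusted p = 0.169) with TMM and 0.45 with the offsets, neither called. With the offsets it was above 0 whichever library was left out, and it was called without mESC-2i replicate 3 (0.73) and without EpiLC replicate 2 (0.52). The TMM value moved with single libraries and with scaling: it was -0.63 and called without mESC-2i replicate 2, 0.05 without replicate 3, and -0.76 and called with total-count scaling.

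Kmt2b, which encodes MLL2, was the best expressed methyltransferase in both stem cell conditions (chromosome 7, 30568858-30588726, minus strand, 9596 exonic bases). It was measured at 13.8, 12.3 and 22.2 RPKM in mESC-2i, 26.9, 27.2 and 34.2 in the mESC-ser libraries, and 9.69, 10.9 and 11.3 in those of EpiLC. No library overlapped between conditions. Its changes were the smallest of the methyltransferases in serum: 0.84 against mESC-2i on the log2 scale (SE 0.20, edgeR adjusted p = 0.00384; 0.52 with offsets). With the offsets that call was lost without mESC-2i replicate 1 (0.48) or replicate 2 (0.44). In EpiLC it fell by 1.40 against mESC-ser (SE 0.10, edgeR adjusted p = 7.19e-10; -0.71 with offsets). It lay inside the quartiles of like-length genes in all 3 comparisons. Its lower call against mESC-2i, at -0.60 (SE 0.19, edgeR adjusted p = 0.0148), was lost with the offsets (-0.16), without mESC-2i replicate 3 (-0.28) and without EpiLC replicate 1 (-0.53, edgeR adjusted p = 0.065).

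One mESC-2i library set much of the spread of the methyltransferases. In replicate 3 their CPM was between 1.7 and 2.39 times the mean of replicates 1 and 2, with Kmt2d at 2.39 and Kmt2a at 2.06, while the medians of like-length genes were between 1.09 and 1.3. The demethylases differed less there: the ratio was 0.944 for Kdm1a, 1.28 for Kdm5a, 1.1 for Kdm5b and 1.34 for Kdm6b. In mESC-ser the third replicate was at most 1.26 times the others and in EpiLC at most 1.27 times, for any member. Without that library the 6 methyltransferases rose further in serum, with log2 fold changes from 1.16 (Kmt2b) to 2.89 (Setd1b). Without it in EpiLC against mESC-2i, Setd1a was at 1.73, Setd1b at -1.70 and Kmt2c at -1.52, all still called.

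Kdm1a, the LSD1 demethylase, had the highest level of the set. On chromosome 4 (136550540-136602723, minus strand, 5179 exonic bases), it was read at 51.2, 52.2 and 48.8 RPKM in mESC-2i, 54.9, 55.7 and 56 in the mESC-ser libraries, and 33.6, 36.3 and 32.8 in those of EpiLC. The EpiLC libraries were all below the rest, and the stem cell conditions were separate but close. The difference between mESC-ser and mESC-2i was 0.10 on the log2 scale (SE 0.09, edgeR adjusted p = 0.331). In EpiLC it fell by 0.57 against mESC-2i (SE 0.09, edgeR adjusted p = 0.000141) and by 0.63 against mESC-ser (SE 0.08, edgeR adjusted p = 1.01e-06). Like-length genes had medians of -0.44 and -0.40, and with the offsets neither fall exceeded the threshold, at -0.26 and -0.48. Scaling on long genes alone moved them to -0.11 and 0.13.

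Kdm5a and Kdm5b, the KDM5 demethylases among the members, lay inside the quartiles of their like-length genes in every comparison. Kdm5a (chromosome 6, 120364124-120444574, plus strand, 14158 exonic bases) was found at 3.61, 3.02 and 4.25 RPKM in mESC-2i, 7.7, 7.66 and 8.13 in the mESC-ser libraries, and 1.94, 1.6 and 2.06 in those of EpiLC, with no overlap between conditions. Its log2 fold changes of 1.08 in mESC-ser against mESC-2i (SE 0.13, edgeR adjusted p = 3.83e-05) and -0.97 in EpiLC against mESC-2i (SE 0.15, edgeR adjusted p = 0.000126) stood beside like-length medians of 0.68 and -0.98. Against mESC-ser it fell 4.01-fold in EpiLC (edgeR adjusted p = 7.79e-12), where the like-length median was -1.63 on the log2 scale. Only this fall was still called with the offsets, at -0.60; the others were 0.34 and -0.25.

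Kdm5b (chromosome 1, 134560171-134635285, plus strand, 16555 exonic bases) had a higher level than Kdm5a in each condition. It gave 16.6, 15.1 and 17.5 RPKM in mESC-2i, 32.5, 31.6 and 36 in the mESC-ser libraries, and 13, 13 and 12.1 in EpiLC. Serum was again above both other conditions, and EpiLC below mESC-2i by less than the call threshold. The log2 values were 1.00 (SE 0.10, edgeR adjusted p = 1.58e-05), -0.38 (SE 0.09, edgeR adjusted p = 0.00359, not called) and -1.33 (SE 0.08, edgeR adjusted p = 1.17e-10) in the same order of comparisons. Genes of like length had 0.71, -0.94 and -1.47. None was called with the offsets, which gave 0.31, 0.42 and 0.09, the second and the third with the sign turned, and total-count scaling called the second, at -0.71.

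Kdm6b, the H3K27 demethylase JMJD3 (chromosome 11, 69398508-69413675, minus strand, 6954 exonic bases), was called in no comparison with TMM. Its level was 11.8, 9.72 and 14.4 RPKM in mESC-2i, 12.7, 13.1 and 15.5 in the mESC-ser libraries, and 12.8, 14.9 and 16.8 in those of EpiLC, and all 3 conditions overlapped. The TMM values were 0.17, 0.31 and 0.18 on the log2 scale (edgeR adjusted p = 0.311, 0.0777 and 0.104), and total-count scaling gave -0.03 and -0.16 for the latter 2. The like-length medians in EpiLC were -0.57 against mESC-2i and -0.64 against mESC-ser, and the offsets called it higher in both, at 0.56 (edgeR adjusted p = 0.000446) and 0.53 (edgeR adjusted p = 1.67e-05). The second of these calls was lost without EpiLC replicate 3 (0.43). An antisense gene, Kdm6bos, overlaps 286 of its exonic bases, and the library kit does not mark strand.

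Ratios of paralogues within a library do not depend on the scaling of that library. Setd1a exceeded Setd1b 3.2-fold in mESC-2i, 1.22-fold in mESC-ser and 33.9-fold in EpiLC; the log2 ratio was 1.69, 1.61 and 1.73 in the mESC-2i libraries, 0.32, 0.31 and 0.25 in the mESC-ser libraries, and 5.22, 5.25 and 4.79 in those of EpiLC. The spread within a condition was far under the gap between conditions, mESC-2i replicate 3 included. The size of each ratio rests on the exonic lengths taken, and differences of a ratio between conditions do not. The longest transcripts are 6487 bases for Setd1a and 8857 for Setd1b. Which of them was higher in mESC-ser, at 1.22-fold, is therefore not settled. For Kmt2c over Kmt2d the mean log2 ratio was -1.17 ± 0.16 (SD, n = 3) in the 2i condition, -0.97 ± 0.07 in the serum condition and -3.31 ± 0.14 in EpiLC, so the enhancer pair held a similar balance in both stem cell conditions and a different one in EpiLC. Kmt2a over Kmt2b was -2.49 ± 0.22, -1.32 ± 0.03 and -2.26 ± 0.17.

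The demethylase pairs were read the same way. Kdm5a over Kdm5b was -2.19 ± 0.14, -2.09 ± 0.05 and -2.77 ± 0.24 in mESC-2i, mESC-ser and EpiLC, and Kdm1a exceeded its relative Kdm1b 20.4-fold, 16.2-fold and 25.1-fold. In the H3K27 pair, Kdm6a over Kdm6b was -1.29 ± 0.16, 0.09 ± 0.11 and -3.24 ± 0.27, with Kdm6a at 4.85, 14.6 and 1.59 RPKM on average. Of 18 comparisons of 6 ratios between conditions, 15 did not overlap, and each of those gave a 2-sided exact permutation p of 0.1, the smallest that 3 against 3 can give (adjusted p = 0.12), so none can pass 0.05 in this design. Differences between conditions were common in these libraries. Single genes called in either direction were 8843 of 15728 in mESC-ser against mESC-2i. They were 10732 of 15378 in EpiLC against mESC-2i and 11246 of 15345 in EpiLC against mESC-ser. The share of ratios of other gene pairs without overlap is not given here, so the count of 15 has no like background. The overlaps were Kmt2a over Kmt2b in EpiLC against mESC-2i, and Kmt2c over Kmt2d and Kdm5a over Kdm5b in mESC-ser against mESC-2i. A ratio of genes of unlike length still carries the length dependence, and the exonic lengths are 6795 and 12068 bases for the SET1 pair and 20291 and 19931 for the enhancer pair.

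**Figure D4:**
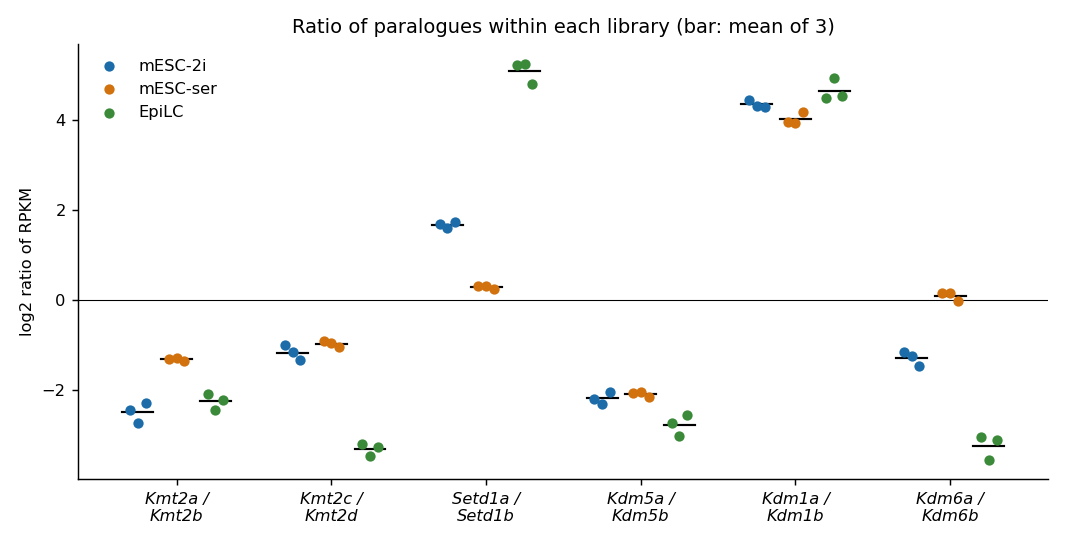
Log2 ratio of RPKM of 6 paralogue pairs in each of the 9 libraries (dots; black bar, mean of 3). The Setd1a to Setd1b ratio lies between 4.79 and 5.25 in EpiLC and between 0.25 and 0.32 in mESC-ser, and the Kmt2c to Kmt2d and Kdm6a to Kdm6b ratios are lowest in EpiLC.

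The partners of the methyltransferases were read from lists of complex members. The counts of every list below stand beside the shares over all genes. With TMM these were 25.9% higher and 30.3% lower in mESC-ser against mESC-2i. They were 32.0% and 37.8% in EpiLC against mESC-2i, and 35.5% and 37.8% in EpiLC against mESC-ser. With the offsets they were 24.8% and 27.9%, 29.4% and 35.1%, and 31.0% and 33.7%. Of the shared core, 3 of 4 were lower in EpiLC than in mESC-2i: Wdr5, the subunit that docks the enzyme, by 1.29 on the log2 scale, Rbbp5 by 1.05 and Ash2l by 0.82, while Dpy30 rose by 1.61. The offsets kept the calls of Wdr5 (-1.19), Rbbp5 (-0.92) and Dpy30 (0.92) but not that of Ash2l (-0.29). Against mESC-ser the same 3 were called lower and Dpy30 higher with TMM; with the offsets Wdr5 was at -0.92, Rbbp5 at -0.96 and Dpy30 at 0.97, all called, while Ash2l turned sign to 0.15 and was not called. Dpy30 is short, and among its like-length genes 69.5% were called higher with TMM in EpiLC against mESC-2i and 88.5% against mESC-ser (44.5% and 55.5% with the offsets). Among the like-length genes of Wdr5, Rbbp5 and Ash2l, 33%, 36% and 50.5% were called lower with TMM in EpiLC against mESC-2i. Against mESC-ser the shares were 26%, 30.5% and 64%. In mESC-ser against mESC-2i 1 of 4 was lower, Wdr5 at -0.57, and 0 with the offsets. The other 3 lay between -0.02 and 0.07 there.

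Subunits particular to one COMPASS type numbered 12. In serum 4 were higher and 2 lower, and the same counts were reached with the offsets: the largest changes were Bod1l, a SET1 complex subunit, at 1.80, Hcfc1, a cofactor of the SET1 and MLL1 types, at 1.66, and Kdm6a, the H3K27 demethylase held in the Kmt2c and Kmt2d complexes, at 1.56, all called in both fits. Relative to mESC-2i, EpiLC had 2 higher and 6 lower (3 and 4 with offsets). The lowest were Hcfc2, a relative of Hcfc1, at -2.68, Ncoa6, another partner of Kmt2c and Kmt2d, at -2.20, and Kdm6a at -1.62, each called in both fits. Against mESC-ser 2 were higher and 7 lower (1 and 5 with offsets), led by Kdm6a at -3.14, Bod1l at -2.53 and Hcfc2 at -1.91, which stayed called. The list medians were 0.14, -0.43 and -0.86, beside -0.04, -0.11 and -0.07 over all genes.

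Other SET proteins linked to H3K4 gave 6 tested genes. In serum 2 were higher and 2 lower (2 and 3 with offsets), with Setd7, an H3K4 monomethyltransferase, at 2.28, Smyd2 at -1.52 and Smyd3 at -0.92. EpiLC had 1 higher than mESC-2i, Setd7 at 1.28, and 4 lower, led by Kmt2e at -2.24 and Smyd1 at -1.33, and the offsets gave the same counts. Against mESC-ser it was 1 higher and 3 lower (1 and 2 with offsets), led by Smyd1 at -2.10 and Kmt2e at -1.68. Smyd1 was low throughout, at a mean of 5.44 CPM in mESC-2i and 9.75 in mESC-ser.

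Of the other H3K4 demethylases, Kdm5c rose in serum by 1.17 on the log2 scale (1.10 with offsets) and Kdm5d was called lower, the latter on 9 to 27 reads per library in mESC-2i and 0 to 2 in mESC-ser. In EpiLC against mESC-2i 0 were higher and 2 lower, Kdm1b at -0.87 and Kdm5d at 0 to 4 reads per EpiLC library, with 1 higher (Kdm5c, 0.64) and 2 lower with the offsets. Against mESC-ser both genes tested were lower, Kdm1b at -1.26 and Kdm5c at -0.95, the second not called with the offsets. The 11 CoREST partners of Kdm1a gave 6 higher and 2 lower in serum (5 and 3 with offsets), with Phf21a, a reader of unmethylated H3K4, at 1.74, Rcor3 at -1.31 and Zmym3 at 1.16. In EpiLC 2 were higher and 4 lower than in mESC-2i (3 and 3 with offsets), and 1 higher and 7 lower than in mESC-ser (1 and 3). Rcor1, the CoREST scaffold, led both, at -2.13 and -2.84, and was called with the offsets (-1.77 and -2.45).

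The 4 genes listed as other H3K27 demethylases were lower in EpiLC. How far each of them acts on H3K27 was not assessed. All 4 of Kdm6a, Uty, Kdm7a and Phf8 were lower in EpiLC than in mESC-2i, at -1.62, -1.25, -1.19 and -1.32, and than in mESC-ser, at -3.14, -2.22, -2.22 and -1.75, and every one of these calls was kept with the offsets. Over all genes 37.8% were called lower in either comparison; among the like-length genes of these 4 it was between 49.5% and 57% against mESC-2i and between 58.5% and 68% against mESC-ser, and with the offsets between 30% and 37% and between 26.5% and 38%. In serum 3 of 4 were higher than in mESC-2i with TMM and 1, Kdm6a at 1.06, with the offsets. Uty, the Y-linked relative of Kdm6a, was at 1.01 with TMM and 0.24 with the offsets in that comparison.

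Enzymes of H2B ubiquitination and the PAF complex, which promote H3K4 methylation by SET1, gave 4 higher and 1 lower of 10 in serum in both fits, led by Cdc73 (1.26, not called with the offsets), Ctr9 (1.22) and Rnf20 (0.75). In EpiLC against mESC-2i it was 2 higher and 3 lower (3 and 2 with offsets), led by Rnf20, the H2B ubiquitin ligase, at -1.15, Wac at -1.09 and Ube2a at 0.96. Against mESC-ser 2 were higher and 7 lower (1 and 5 with offsets), with Rnf20 at -1.85, Ctr9 at -1.66 and Wac at -1.49. Of 8 readers of H3K4me3, 4 were higher and 1 lower in serum (3 and 1 with offsets), led by Bptf, the NURF reader, at 1.88 and Chd1, a remodeller, at 1.66. Against mESC-2i, EpiLC had 1 called, Ing2 at 1.43, and 4 with the offsets, all higher, and against mESC-ser 1 was higher, Ing2 at 1.63, and 4 lower (2 and 2 with offsets), led by Bptf at -1.60 and Chd1 at -1.37, neither of which was called with the offsets.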

How the data were processed

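RNA-seq of mESC-2i, mESC-ser and EpiLC (3 libraries each; TruSeq v2, unstranded, single-end) was analysed from the raw gene counts the authors deposited. Per the submitters' processing notes, reads were trimmed with Trim Galore 0.6.6, aligned with HISAT2 2.2.1 to mm10 and counted with featureCounts (Subread 2.0.1). The annotation release, strand setting and treatment of multiply mapped reads are not given in the sources used here.

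A separate edgeR 4.0.16 model was used for the 6 libraries of each pair of conditions (R 4.3.3; filterByExpr, TMM, quasi-likelihood test, Benjamini-Hochberg adjustment over all genes tested). A call needed an adjusted p under 0.05 and a log2 fold change over 0.5 in size. The SE was taken from the fold change and its F statistic. RPKM divided TMM-scaled CPM by union exonic length (GENCODE M21 on GRCm38, which is mm10). Of 38293 Ensembl gene ids, 36429 (95.1%) matched that release. In the second fit, offsets were natural splines (5 degrees of freedom each) of log exonic length and GC content per library, estimated on genes with a mean count of at least 50, with TMM recomputed; this fit was chosen after seeing the data. Ratios were compared with exact permutation tests. DESeq2 1.42.0 was an alternative.

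Both fits were tested on simulated data for mESC-ser against mESC-2i: 99.5% of 192 changed genes were recovered of 15613 tested, with 1.55% false calls. With a length dependence added (15556 tested), the fit without offsets gave 95.9% false calls among 4688 called genes and the fit with them 2.99% among 201. The simulation changed few genes, gave all genes the same fixed spread, and added a trend of the kind that the offsets model. In the data themselves 8843 of 15728 genes were called in this comparison. The simulated rates are therefore not error rates of either fit on these data.

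The genes, partner lists and markers were chosen with earlier results of these data known. Named were all 10 members, up to 3 called genes with the largest change per list and comparison, and the paralogue partners Kdm1b and Kdm6a; the remaining core subunits, H3K27 demethylases and Kdm5c were named after their values were seen. Depth ran from 7187576 to 16829549 counts, and replicates of a condition differed beyond sampling noise. Same-numbered mESC-ser and mESC-2i libraries deviated together (r = 0.144, 0.2 and 0.363), which met the rule for pairs that every r exceeds 0.1. Those of the other comparisons (r from 0.0124 to 0.128) did not meet it. However, mESC-ser replicate 1 lay closer to mESC-2i replicate 2 (r = 0.16), so the values do not settle that the libraries numbered 1 are a pair. The main fits used no pairing.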

Additional observations from a re-analysis of the deposited data

How the results depend on the processing

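For mESC-ser against mESC-2i, 246 of 270 values of single members kept their direction and their side of the threshold under the alternatives, 20 fell below it and 4 turned sign. The counts were 191 of 270 in EpiLC against mESC-2i, with 32 below, 23 newly past the threshold and 24 with the sign turned, and 226 of 270 in EpiLC against mESC-ser, with 15, 18 and 11. A threshold of 1 on the log2 scale left 4935 of 8843 called genes in mESC-ser against mESC-2i and 3 of 6 called members in EpiLC against mESC-2i, since fewer changes are that large. Leaving out 1 library at a time gave 5 to 8 called members in mESC-ser against mESC-2i over both fits; the 5 came with length and GC offsets and without mESC-2i replicate 1 or 2, where Kmt2b lost its call. Setd1b and Kmt2c kept every call in all 3 comparisons.

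The sign turns were these. In mESC-ser against mESC-2i, TMM on long genes gave -0.21 for Kdm1a and -0.12 for Kdm6b, and the offsets gave -0.07 for Kdm6b without mESC-2i replicate 2 and -0.01 without mESC-ser replicate 2. In EpiLC against mESC-2i, total-count scaling gave -0.20 for Kmt2d and -0.03 for Kdm6b, TMM on long genes 0.07 for Kmt2a and 0.09 for Kdm5b, and leaving out single libraries ran from -0.05 to 0.70 for Kmt2d (below 0 without mESC-2i replicate 1 or 2) and from -0.63 to 0.05 for Kmt2a (above 0 without mESC-2i replicate 3). With the offsets there, Kmt2a was 0.45 (0.49 with the replicate block), and 0.39, 0.30 and 0.73 without mESC-2i replicates 1 to 3 or 0.45, 0.52 and 0.43 without EpiLC replicates 1 to 3. Kdm5b was 0.42 (0.42 with the block), and 0.44, 0.50 and 0.35 or 0.42, 0.40 and 0.49 in the same order, and Kmt2b was 0.03 without mESC-2i replicate 3. In EpiLC against mESC-ser, total-count scaling gave -0.10 for Setd1a and -0.16 for Kdm6b, and TMM on long genes 0.13 for Kdm1a. Kdm5b was 0.09 with the offsets, 0.09 with the block and offsets, and with the offsets and 1 library left out 0.12, 0.10 and 0.10 (mESC-ser replicates 1 to 3) or 0.06, 0.05 and 0.13 (EpiLC replicates 1 to 3). In that comparison and fit Kdm1a gained a call without mESC-ser replicate 3 (-0.51) or EpiLC replicate 2 (-0.52). The offsets left a median of 0.47 in the shortest genes of EpiLC against mESC-ser and of -0.01 in the longest. The cause of the length dependence was not tested.

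A replicate block, for which only mESC-ser and mESC-2i met the pairing rule, left 8 called members there among 8953 called genes (6 with the offsets) and changed no member's call. In EpiLC against mESC-2i it left 6 members among 10759 genes, and in EpiLC against mESC-ser 8 among 11207. Among the 10 members, the lowest counts were those of Setd1b (30 to 40 reads) and Kmt2c (81 to 91 reads) in EpiLC.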
